A study of Mus musculus with 8 samples.

Results

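The genes described here are 10 members of the BCL2 family, the proteins that decide whether the mitochondrial outer membrane is opened during apoptosis. They were taken by symbol from a table of 24421 genes, and all 10 were found and passed the filter on low counts, as did 11797 genes in all. By role they are the pro-survival genes Bcl2, Bcl2l1 (Bcl-xL) and Mcl1, the pore-forming effectors Bax and Bak1, and the BH3-only genes Bid, Bad, Bcl2l11 (Bim), Bbc3 (Puma) and Pmaip1 (Noxa). The level of each was measured by poly(A) RNA sequencing in KPCY cells, a male mouse pancreatic cancer line. KPCY lines come from pancreatic tumours of mice in which a Cre recombinase alters Trp53, among other alleles, and switches on a yellow fluorescent protein as a label, and both groups share these alleles. One group of 4 libraries came from cells with a lentiviral vector that blocks miR-27a-3p, here called the knockdown. The other 4 came from cells with a scrambled vector. Each line was selected for 7 days in puromycin at 2 µg/mL, later grown in DMEM with 4.5 g/L glucose and 10% serum, and collected for RNA 24 hours after seeding. The labels describe 1 stable line for each vector, with replicates called biological. What the p-values weigh is thus the variation among cultures of 1 line per vector, which may be technical, and not among separate transductions.

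In the mitochondrial route to apoptosis, Bax and Bak1 proteins form pores in the outer membrane and release cytochrome c, which starts the caspase cascade. Pro-survival proteins hold Bax, Bak1 and their activators in check. BH3-only proteins carry a stress or death-receptor signal to them, either by occupying the pro-survival proteins or by activating Bax and Bak1. Much of this control works through protein binding, cleavage and turnover, which RNA counts do not show, and gene-level counts also merge splice forms such as Bcl-xL and Bcl-xS.

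The libraries held 19165513 to 23542275 counts, and the members 98 to 4967 counts each. Scrambled replicate 2 stood apart from its group, since its pairs with the other scrambled libraries gave 5.17 to 5.35 as the chi-square statistic divided by the number of genes, and their own pairs 1.80 to 2.35. For members that differed between the lines, the change is therefore also given without it. The keratins Krt7, Krt8, Krt18 and Krt19 and the cadherin Cdh1 marked the cells as epithelial, at means from 729 to 3252 CPM (each count relative to the total of its library, with edgeR's TMM scaling between libraries), while the surface marker Epcam was low at 5.62 ± 1.16 CPM in the knockdown and 7.15 ± 1.80 in the scrambled cells (SD, n = 4 each). Of 15 markers of leukocytes, endothelium, fibroblasts, acini and islets, 6 had 0 counts in all libraries, among them Adgre1, Dcn, Lum, Cpa1 and Ins2. The acinar gene Cela1 was present and fell, at 2.36 ± 0.441 CPM in the knockdown against 3.29 ± 0.675 in the scrambled cells (SD, n = 4 each, edgeR adjusted p = 0.0297). The endothelial gene Kdr, too low to be tested, had 0.187 ± 0.048 against 0.676 ± 0.283 CPM (SD, n = 4 each). The 15 markers together came to 2.69 to 4.55 CPM in the knockdown and 4.13 to 5.73 CPM in the scrambled libraries. Their part in the results below was not tested.

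Because the knockdown is aimed at a microRNA, the seed matches that the members carry are shown first. MicroRNAs lower their targets mainly by pairing their seed, bases 2 to 8, with the 3′ UTR of the messenger RNA. The mature sequences of miR-27a-3p and its relative miR-27b-3p, from RefSeq (GRCm38.p6), are printed 5′ to 3′ with the seed in capitals, which they share.
miR-27a-3p, chr8:84208727-84208747, plus strand: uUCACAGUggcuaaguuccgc
miR-27b-3p, chr13:63300760-63300780, plus strand: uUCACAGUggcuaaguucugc

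Longest 3′ UTRs in GENCODE M21 were searched on the transcript strand for the core CTGTGA, which pairs with bases 2 to 7. A match extended by an A on its 3′ side is CTGTGAA, one extended to base 8 is ACTGTGA, and one with both is the 8mer ACTGTGAA. The core lay in the longest UTR of 7 of the 10 members, and in 49.2% of the 11021 tested genes with an annotated UTR. A 7mer or 8mer lay in 5 members and in 29.6% of those genes, and an 8mer in 1 member and in 6.39%. The best match is printed for 5 of these 7, among them members that rose, fell and were not called, with its surroundings, 28 bases on the transcript strand (GRCm38, coordinates of the printed stretch), with the match in capitals. For Bcl2l1 the first of its 2 7mer matches is shown.
Bbc3, chr7:16317825-16317852, plus strand: ggaggggtccagACTGTGAAtcctgtgc
Bcl2, chr1:106540842-106540869, minus strand: gcgaaatattatcCTGTGAAaggtttac
Mcl1, chr3:95660865-95660892, plus strand: aaactacatgcatCTGTGAAaacatgtg
Bcl2l1, chr2:152781953-152781980, minus strand: atctaccacacttCTGTGAAagccacct
Bid, chr6:120893290-120893317, minus strand: ccagccatggtggCTGTGAtggcttggg

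Bbc3 holds the 8mer 603 bases after its stop codon, and a 7mer at 433 bases. In Mcl1 the match begins 54 bases after the stop codon, in Bcl2l1 177 bases, in Bid 976 bases and in Bcl2 2407 bases. Bcl2l11 holds 3 copies of the 6-base core in its longest UTR, and 2 7mers in the shorter UTR of another transcript. Pmaip1 holds 1 ACTGTGA and 2 cores. Bax, Bak1 and Bad held no core in any annotated 3′ UTR, which says only that these letters are absent there. UTR length differs widely among the members, from 224 bases in Bax to 5086 in Bcl2, against a median of 1200 for tested genes. A seed match is a description of sequence and was not tested for activity, and mature miR-27a is not captured in these libraries.

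Of the 10 members, 6 differed between the lines, 3 higher and 3 lower in the knockdown, called at a Benjamini-Hochberg adjusted p under 0.05 over all tested genes in the quasi-likelihood test of edgeR. Across all tested genes 47.9% were called by the same rule (23.8% higher and 24.1% lower), so a count of this size is not particular to the family. The split over all genes depends on scaling: 49.7% of calls were higher with TMM, 58.4% with library totals alone and 56.3% with upper-quartile scaling. The median log2 fold change of the members was −0.00408 (0.00170 for all genes), and their median absolute change was 0.131 (0.133 for all genes). The groups did not overlap in those 6 members, and overlapped in the other 4. Among all tested genes 42.2% did not overlap, 21% higher and 21.1% lower in the knockdown. By role, 2 of the 3 pro-survival genes rose and none fell, the effectors split with 1 rise and 1 fall, and 2 of the 5 BH3-only genes fell and none rose. Only Pmaip1 and Bid differed by more than 1.2-fold when that size was tested (glmTreat in edgeR), which 9.38% of all tested genes did in either direction and 4.43% did downward. At a fold of 1.1, 4 members passed (Bcl2, Mcl1, Bid and Pmaip1), against 22.4% of all tested genes.

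**Figure D1:**
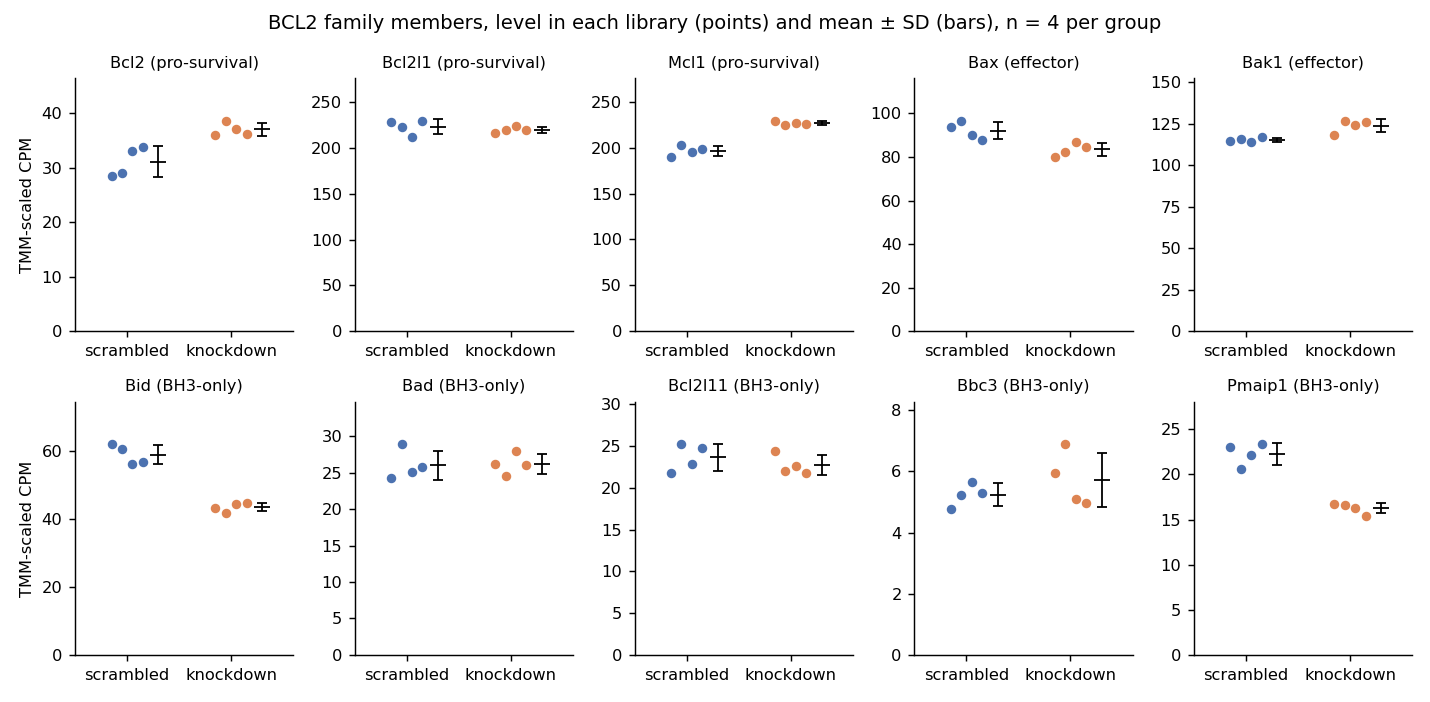
Level of each member in TMM-scaled CPM (vertical axis, from 0, a separate scale per panel) in the 4 scrambled (blue) and 4 knockdown (orange) libraries, with the mean and SD beside the points. Bcl2, Mcl1 and Bak1 are higher in all knockdown libraries, Bax, Bid and Pmaip1 lower in all, and the 2 groups overlap in Bcl2l1, Bad, Bcl2l11 and Bbc3.

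Among the pro-survival genes, Mcl1 had the smallest adjusted p. Mcl1 (chromosome 3, 95658788 to 95663176, plus strand) encodes a short-lived protein that restrains Bak1 and is bound by Noxa. Its level was 190.1, 203, 196 and 199 CPM in scrambled replicates 1 to 4 and 229.7, 224, 227 and 226 CPM in knockdown replicates 1 to 4. All knockdown libraries lay above all scrambled ones, and the knockdown libraries lay closer together. The means were 227 ± 2.21 and 197 ± 5.36 CPM (SD, n = 4 each), a 1.15-fold rise (log2 fold change 0.20, SE 0.0259, edgeR adjusted p = 9e-07). Without scrambled replicate 2 the rise was 1.16-fold. The 10 tested neighbours of Mcl1 had a median log2 fold change of 0.07, with 5 higher and 3 lower. In bulk libraries such as these, a change in every cell and a change in the share of cells with a transcript cannot be told apart.

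Bcl2, the founding member of the family (chromosome 1, 106538178 to 106714274, minus strand), rose from a much lower level. Scrambled replicates 1 to 4 had 28.4, 29.0, 33.1 and 33.8 CPM, and knockdown replicates 1 to 4 had 36, 38.6, 37.1 and 36.2 CPM. The groups did not overlap, but the scrambled libraries were spread, with a coefficient of variation of 8.92% where counting alone gives 3.90%. The mean was 37.0 ± 1.18 against 31.1 ± 2.78 CPM (SD, n = 4 each), 1.19-fold higher (log2 fold change 0.25, SE 0.0567, edgeR adjusted p = 0.000993), and 1.16-fold higher without scrambled replicate 2. Bcl2 shares 558 exon bases with an antisense transcript, D630008O14Rik, which was not analysed here. Its 10 tested neighbours had a median log2 fold change of 0.09, with 3 higher and none lower.

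Bcl2l1, which encodes Bcl-xL (chromosome 2, 152780668 to 152831728, minus strand), was not called. It stood at 228, 223, 212 and 230.2 CPM in the scrambled and at 216, 220.1, 224 and 219.9 CPM in the knockdown replicates. The knockdown values lie inside the scrambled range. The mean was 220.1 ± 3.36 against 223 ± 8.19 CPM (SD, n = 4 each), a log2 fold change of −0.02 with a 95% interval from −0.08 to 0.04 (edgeR adjusted p = 0.571). This interval leaves room for a 1.03-fold rise or a fall to 0.947 of the scrambled level. The 3 pro-survival genes together came to 482 to 488 CPM in the knockdown and 441 to 463 CPM in the scrambled libraries.

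The effectors moved in opposite directions by small amounts. Bax (chromosome 7, 45461697 to 45466898, minus strand) moves from the cytosol to mitochondria when activated. Its level was 93.7, 96.7, 89.9 and 87.8 CPM in the scrambled and 80.0, 82.2, 87.1 and 84.6 CPM in the knockdown replicates. The highest knockdown value, 87.1, lay just under the lowest scrambled value, 87.8. Bax fell 1.1-fold (log2 fold change −0.14, SE 0.0369, edgeR adjusted p = 0.00336), and 1.08-fold without scrambled replicate 2. It shares 192 exon bases with Gm45808 on the same strand, which was not analysed here, and its 10 tested neighbours had a median log2 fold change of −0.13, with 5 lower and none higher.

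Bak1 (chromosome 17, 27019810 to 27029009, minus strand) sits in the mitochondrial membrane, held in check by Mcl1 and Bcl-xL. It had 115, 116, 114 and 117 CPM in the scrambled replicates. In the knockdown it had 118, 127, 124 and 126 CPM. The lowest knockdown library was just above the highest scrambled one, and the other 3 were well above. Bak1 rose 1.07-fold (log2 fold change 0.10, SE 0.0301, edgeR adjusted p = 0.00756), and also 1.07-fold without scrambled replicate 2. It shares exon bases with Ggnbp1 on the opposite strand, which was low at 1.63 ± 0.205 against 1.2 ± 0.441 CPM (SD, n = 4 each). Among the 10 tested neighbours of Bak1 the median log2 fold change was 0.05, with 2 higher and none lower.

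Bid and Pmaip1 had the largest changes among the members, and both fell. Bid is cut by caspase-8 and so joins death receptors to the mitochondrial route. Its level was 61.9, 60.4, 56.2 and 56.7 CPM in the scrambled and 43.2, 41.8, 44.3 and 44.6 CPM in the knockdown replicates. The gap between the groups was wider than the range within either. Bid fell 1.35-fold, to 43.5 ± 1.27 from 58.8 ± 2.80 CPM (SD, n = 4 each, log2 fold change −0.43, SE 0.0433, edgeR adjusted p = 2.57e-08), and 1.34-fold without scrambled replicate 2. Of all tested genes 11.8% had a larger absolute change.

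Bid lies on chromosome 6 (120891930 to 120916853, minus strand) beside Bcl2l13, a distant relative that works in mitophagy, and the 2 genes share 628 exon bases on opposite strands. Bcl2l13 fell too, 1.12-fold (149 ± 2.27 against 167 ± 5.56 CPM, SD, n = 4 each, edgeR adjusted p = 4.31e-05). The counts of both are uncertain to the extent that reads from the shared bases were given to either. The 10 tested genes nearest to Bid had a median log2 fold change of −0.11, with 6 lower and none higher, and all 536 tested genes of chromosome 6 had a median of −0.11. What part of the fall of Bid goes with its neighbourhood was not tested.

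Pmaip1 (chromosome 18, 66458533 to 66465565, plus strand) encodes Noxa, which binds mainly Mcl1 and marks it for destruction. It had 23.0, 20.6, 22.1 and 23.3 CPM in the scrambled and 16.7, 16.6, 16.3 and 15.4 CPM in the knockdown replicates. The gap between the groups was again wider than the range within either. The fall was 1.37-fold, to 16.3 ± 0.566 from 22.3 ± 1.23 CPM (SD, n = 4 each, log2 fold change −0.46, SE 0.0627, edgeR adjusted p = 2.91e-06), and 1.40-fold without scrambled replicate 2. The 10 tested neighbours of Pmaip1 had a median log2 fold change of −0.30, with 6 lower and 2 higher, and ranged from −0.64 to 3.40. What part of its fall goes with these neighbours was not tested.

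The other 3 BH3-only genes were not called. Bad (chromosome 19, 6941861 to 6951899, plus strand), which is switched off by survival kinases, had 24.2 to 28.9 CPM in the scrambled and 24.5 to 27.9 CPM in the knockdown libraries, with a 95% interval of the log2 fold change from −0.11 to 0.14 (edgeR adjusted p = 0.887). It shares 524 exon bases with Gpr137 on the opposite strand, and Gpr137 rose (30.8 ± 1.79 against 23.9 ± 1.59 CPM, SD, n = 4 each). Bcl2l11 (chromosome 2, 128126038 to 128162547, plus strand), whose product Bim binds all the pro-survival proteins, had 21.7 to 25.2 CPM in the scrambled and 21.8 to 24.5 CPM in the knockdown libraries, with an interval from −0.19 to 0.07 (edgeR adjusted p = 0.47). Bbc3 (chromosome 7, 16308393 to 16318205, plus strand), a direct p53 target that encodes Puma, was the lowest member by CPM. Its counts of 98 to 133 gave 4.76 to 5.66 CPM in the scrambled and 4.97 to 6.88 CPM in the knockdown libraries. The interval of Bbc3 ran from −0.13 to 0.37 (edgeR adjusted p = 0.427), which takes in rises as large as those of Mcl1 and Bcl2. Its coefficient of variation was 15.5% in the knockdown, where counting alone gives 9.35%. The 8mer match of Bbc3, shown above, thus stood in a gene that was not called. Of the members whose best match in the longest UTR was a 7mer, Bcl2 and Mcl1 rose, Bcl2l1 was not called and Pmaip1 fell. Bcl2l11, with 7mers in another transcript's UTR alone, was not called either.

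**Figure D2:**
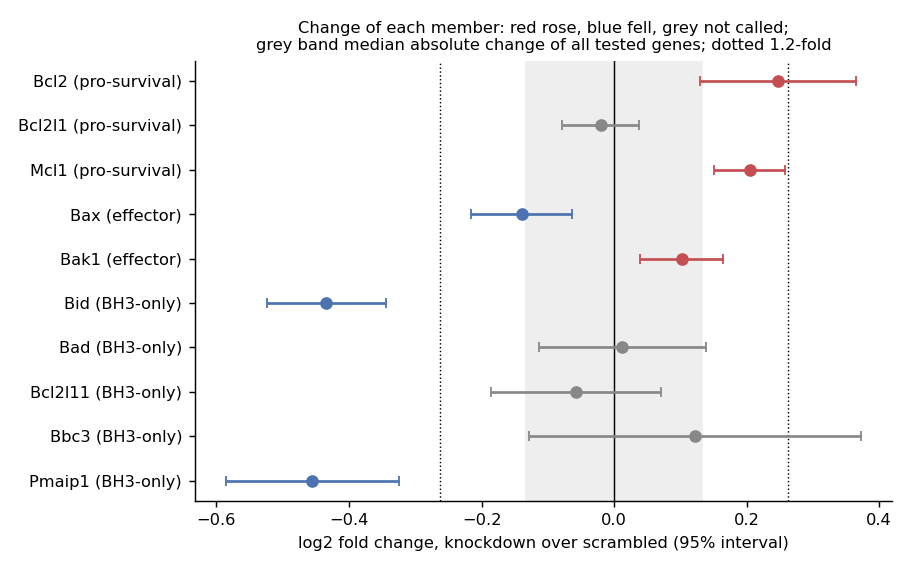
Log2 fold change of each member, knockdown over scrambled (horizontal axis, 0 is no change), with its 95% interval from edgeR. Red members rose, blue fell and grey were not called. The grey band is the median absolute change of all tested genes (0.133 either way) and the dotted lines mark 1.2-fold. The intervals of Bid and Pmaip1 lie wholly beyond the lower dotted line, and those of Bcl2l1, Bad, Bcl2l11 and Bbc3 include 0.

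To compare members with each other, levels were divided by the length of each gene's merged exons. On this scale 4 genes formed an upper tier in both lines. In the scrambled cells Bax had 58.4 ± 2.50, Mcl1 57.6 ± 1.57, Bcl2l1 48.7 ± 1.78 and Bak1 47.9 ± 0.500 CPM per kb (SD, n = 4). Bax and Mcl1 overlapped there, as did Bcl2l1 and Bak1. In the knockdown Mcl1 led at 66.3 ± 0.648 CPM per kb, above every library of Bax (53 ± 1.94), Bak1 (51.4 ± 1.68) and Bcl2l1 (48.0 ± 0.733). Bax and Bak1 overlapped there. This order of the 4 genes depends on the length used: by the longest transcript Bcl2l1 came first in both lines, at 1.29 times Mcl1 in the knockdown and 1.51 times in the scrambled cells, and Bax came next ahead of Mcl1, overlapping Bcl2l1 in the scrambled cells. By merged exons Bcl2l1 lay below Mcl1 in both lines.

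The BH3-only genes and Bcl2 lay well below. Bid had 12.2 ± 0.358 CPM per kb in the knockdown and 16.6 ± 0.788 in the scrambled cells, followed by Bad (10.2 ± 0.541 and 10.2 ± 0.797) and Pmaip1 (5.95 ± 0.207 and 8.15 ± 0.450). Bcl2 had 4.04 ± 0.129 and 3.40 ± 0.303 CPM per kb, Bcl2l11 2.83 ± 0.15 and 2.94 ± 0.203, and Bbc3 2.69 ± 0.417 and 2.46 ± 0.174 (SD, n = 4 each, knockdown first). Bcl2 was thus the lowest of the pro-survival genes by this scale in each line. Its libraries overlapped those of Bcl2l11 in the scrambled cells but not in the knockdown, while those of Bcl2l11 and Bbc3 overlapped in the knockdown only. By the longest transcript Bcl2 and Bcl2l11 changed places in the scrambled cells.

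**Figure D3:**
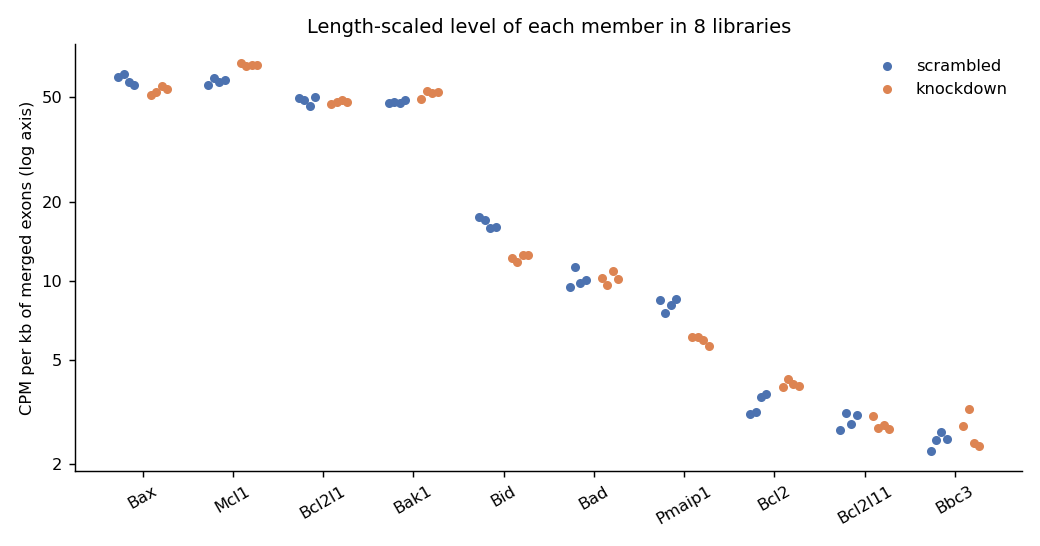
CPM per kb of merged exons for each member in every library (log axis), ordered by the scrambled mean. Bax, Mcl1, Bcl2l1 and Bak1 lie between 46.2 and 67.2 CPM per kb, and Bcl2, Bcl2l11 and Bbc3 between 2.24 and 4.22.

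Ratios between members within a library do not depend on scaling between libraries, though their size depends on the gene lengths used, and are given as descriptions with no test. Since they combine the levels above, they add no independent evidence. The ratio of Bax to Bcl2, a common index of the balance between death and survival, was 19.2, 19.3, 15.8 and 15.1 in scrambled replicates 1 to 4 and 12.9, 12.4, 13.7 and 13.6 in knockdown replicates 1 to 4 (from CPM per kb). All knockdown libraries were lower, with a mean of 13.1 ± 0.605 against 17.3 ± 2.23 (SD, n = 4 each). Pmaip1 over Mcl1, the Noxa transcript against that of its main partner, was 0.151, 0.127, 0.141 and 0.147 in the scrambled and 0.0909, 0.0927, 0.0899 and 0.0854 in the knockdown libraries. Again the groups did not overlap. Bid over Bcl2l1 went from 0.340 ± 0.0151 in the scrambled to 0.255 ± 0.00713 in the knockdown cells, and Mcl1 over Bcl2l1 from 1.18 ± 0.0558 to 1.38 ± 0.0306 (SD, n = 4 each). The 5 BH3-only genes summed, over the 3 pro-survival genes summed, gave 0.367 ± 0.00638 in the scrambled and 0.287 ± 0.00396 in the knockdown cells (SD, n = 4 each), with no overlap. Bax over Bcl2l1 overlapped between the groups (1.2 ± 0.0656 scrambled, 1.1 ± 0.0251 knockdown), as did Bcl2l11 over Bcl2l1 (0.0605 ± 0.00430 and 0.0590 ± 0.00378, SD, n = 4 each). The remaining ratios examined were lower in all knockdown libraries. Scrambled first, they were Bak1 over Mcl1 (0.833 ± 0.0200 and 0.775 ± 0.0324), Bid over Bcl2 (4.92 ± 0.670 and 3.04 ± 0.168) and summed effectors over summed pro-survival genes (0.970 ± 0.0260 and 0.882 ± 0.0256).

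**Figure D4:**
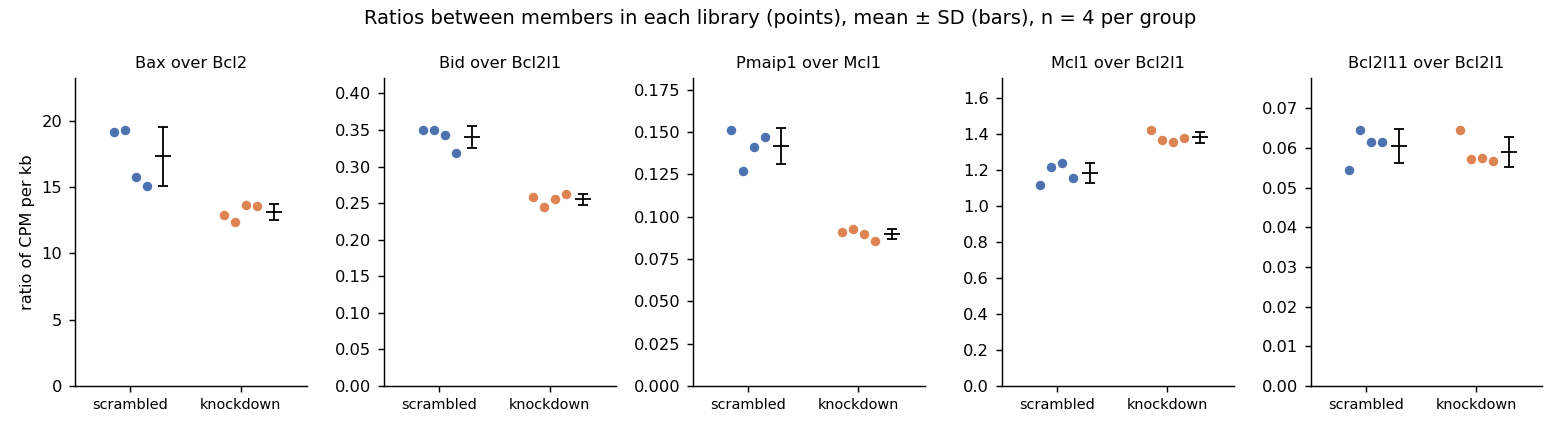
Ratios of CPM per kb between members in each library (vertical axes from 0), scrambled in blue and knockdown in orange, with mean and SD. Bax over Bcl2, Bid over Bcl2l1 and Pmaip1 over Mcl1 are lower in all 4 knockdown libraries, Mcl1 over Bcl2l1 is higher in all 4, and Bcl2l11 over Bcl2l1 overlaps.

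Of 15 further genes of the family or named after it, 9 were tested, 3 fell and none rose, with a median log2 fold change of −0.08. These 33.3% called compare with 47.9% of all tested genes, of which 24.1% were lower. Bnip3, a mitophagy receptor that hypoxia induces, fell 1.95-fold. Its scrambled libraries were widely spread, with 7.91, 8.91, 11.8 and 16.7 CPM, against 5.63, 4.87, 6.28 and 6.43 CPM in the knockdown (edgeR adjusted p = 6.36e-05). Bcl2l13 was described beside Bid, and Bok, an effector-like member chosen here after its values were seen, fell 1.08-fold (65.5 ± 1.77 against 71.1 ± 3.20 CPM, SD, n = 4 each, edgeR adjusted p = 0.017). Bcl2l2 (Bcl-w), Bmf, Bcl2l12, Bcl2l14, Bcl2l15 and Bnip3l were not called. The haematopoietic pro-survival genes Bcl2a1a, Bcl2a1b and Bcl2a1d had 0 counts in all libraries, which allows up to 0.129 to 0.155 CPM per library for counting error only. Bik, Hrk and Bcl2l10 were too low to be tested.

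Downstream of the membrane, 20 genes of the mitochondrial route were all tested, with 5 falls, 2 rises and a median log2 fold change of −0.02. With 35% called, this list lay below the 47.9% of all tested genes. Those that fell were Birc3 1.38-fold and Birc5 (survivin) 1.2-fold, both inhibitor-of-apoptosis genes, with Cycs (cytochrome c) 1.18-fold, the protease Htra2 1.15-fold and the channel Vdac1 1.1-fold (edgeR adjusted p at most 0.000192). Cycs, Htra2 and Vdac1 fall outside the rule for named genes and are given to complete the count. Cycs may share reads with pseudogene copies, and Htra2 shares 753 exon bases with Aup1 and 535 with Loxl3 on the opposite strand. Vdac3 rose 1.24-fold (93.7 ± 2.74 against 75.7 ± 1.17 CPM) and the executioner caspase Casp6 1.22-fold (21.3 ± 0.480 against 17.4 ± 1.21 CPM, SD, n = 4 each, edgeR adjusted p = 0.000677). Apaf1 and Casp9, the core of the apoptosome, and the caspase inhibitor Xiap were not called.

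On the death-receptor side, which reaches the family through Bid, 8 of 12 genes were tested, 3 rose, 2 fell and the median was 0.08. Called genes made up 62.5% of those tested, against 47.9% over all tested genes. Cflar, the decoy that blocks caspase-8, rose 1.16-fold (73.9 ± 2.22 against 63.8 ± 3.14 CPM) and the TRAIL receptor Tnfrsf10b 1.13-fold (87.0 ± 1.87 against 76.6 ± 2.57 CPM, SD, n = 4 each). The TNF receptor Tnfrsf1a, named to complete the count, rose 1.08-fold. Ripk3, the kinase of necroptosis, fell 1.49-fold (8.01 ± 0.262 against 11.9 ± 0.927 CPM, SD, n = 4 each, edgeR adjusted p = 6.68e-06). The adaptor Fadd fell 1.12-fold (edgeR adjusted p = 0.0175), a call that was lost on leaving out scrambled replicate 3 or 4 or knockdown replicate 1 or 2 (adjusted p = 0.0506, 0.0579, 0.0693 and 0.0502). Casp8 was not called (edgeR adjusted p = 0.0527). Fas, Fasl, Tnf and Tnfsf10 were too low to be tested.

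Genes whose proteins set the stability or activity of members had 4 rises and 3 falls among 12 tested, with a median log2 fold change of −0.02. The share called, 58.3%, stood beside 47.9% of all tested genes. The ubiquitin-ligase subunits Btrc and Fbxw7, both of which can target Mcl1 protein, rose 1.18-fold and 1.14-fold, and the Bad kinase Akt1 and the Bim-binding dynein light chain Dynll1, named to complete the count, 1.09-fold each. The stress kinase Mapk8 fell 1.15-fold, the Bmf-binding dynein light chain Dynll2 1.11-fold and Gsk3a, named to complete the count, 1.1-fold. The Mcl1 ligase Huwe1 and deubiquitinase Usp9x were not called.

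Among 11 transcription factors known to act on family genes, 9 were tested, 4 fell and 2 rose, with a median of −0.04. That is 66.7% called in a short list, where all tested genes gave 47.9%. E2f1 fell 1.32-fold (38.0 ± 2.54 against 50.2 ± 2.15 CPM), Jun 1.18-fold, Trp53 1.12-fold (257 ± 4.48 against 289 ± 5.83 CPM) and Atf4, named to complete the count, 1.09-fold (SD, n = 4 each). The call of Jun was lost without knockdown replicate 2 or 4 (edgeR adjusted p = 0.057 and 0.0528). Foxo1 rose 1.16-fold and Rela 1.12-fold, while Foxo3, which can drive Bcl2l11, was not called (12.5 ± 0.837 against 12.6 ± 1.54 CPM, SD, n = 4 each). Trp73 and Trp63 were too low to be tested. Bax and Pmaip1, both known p53 targets, fell, and Bbc3, another, was not called. Of the genes described above, Tnfrsf10b, also a p53 target, rose, and Apaf1, another, was not called. This list of p53 targets is not complete, and their direction as a set was not tested.

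**Figure D5:**
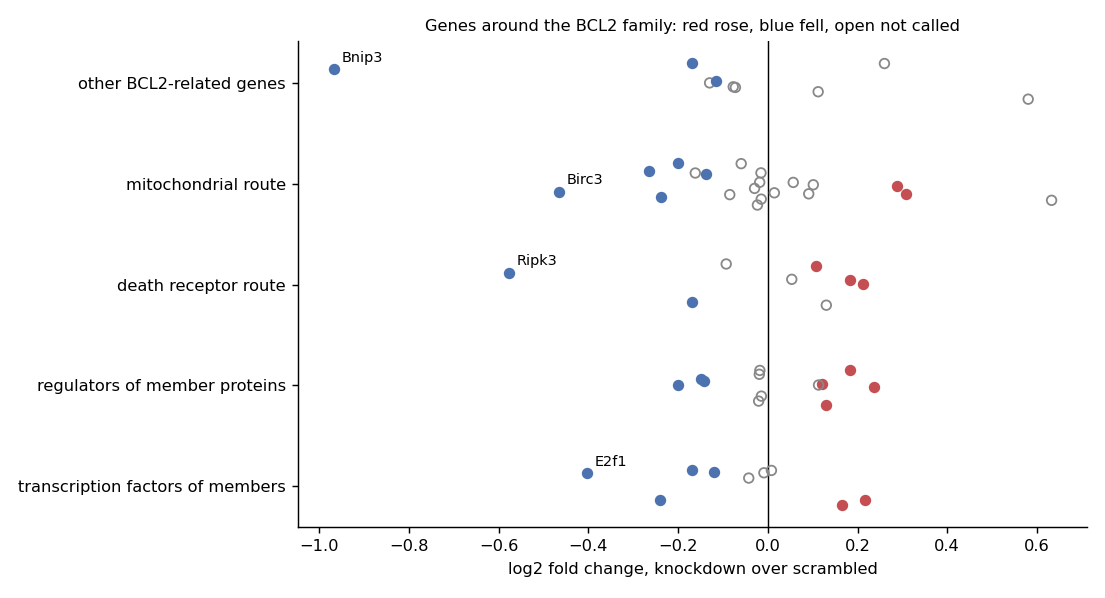
Log2 fold change (horizontal axis) of each tested gene in the 5 lists around the family, with genes that rose in red, genes that fell in blue and genes not called open. Called genes lie on both sides in every list but that of the other BCL2-related genes, where the 3 called genes of 9 all lie below 0 (33.3% called, against 47.9% of all tested genes).

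Promoter windows of 9 of the 10 members were searched for p53 half-sites, and a window is printed where it held one. Any link between the changes of Trp53 and Bax was not tested, and KPCY lines carry an altered Trp53. RefSeq promoter windows (GRCm38.p6, 250 bases before to 50 after each start) were taken for 9 of the 10 members by symbol, 15 windows in all. Pmaip1 was left out of this search, so whether its promoter holds a half-site is not known here. The 15 windows were searched for the p53 half-site consensus, which reads the same on both strands. Of all 32851 windows 8.36% held it, and among the 15 member windows only that of Bax did, 201 bases before the start (chr7:45466849-45467148, minus strand, half-site in capitals).
Bax: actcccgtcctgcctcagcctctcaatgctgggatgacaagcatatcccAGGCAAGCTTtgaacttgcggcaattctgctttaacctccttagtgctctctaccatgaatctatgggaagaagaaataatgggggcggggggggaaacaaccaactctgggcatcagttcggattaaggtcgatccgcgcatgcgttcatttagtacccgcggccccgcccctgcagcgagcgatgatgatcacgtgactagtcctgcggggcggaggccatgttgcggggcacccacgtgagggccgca

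This match describes the sequence and was not tested as a binding site, and a window without the consensus says nothing about the factor. The Bax window held 57.3% G and C, against 76.0% in that of Bcl2 and a median of 52.7% over all windows.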

How the data were processed

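Raw read counts per gene symbol were deposited by the authors in 1 table. The submitters' processing notes name build mm10 and the tools STAR, Bowtie, bcl2fastq 2.20, R 4.2.1 and DESeq2 1.36.0, without saying what each did. How reads were assigned to genes and by which annotation and strand is not given in the sources used here. Whether the counting kept reads of a gene apart from those of an antisense partner is thus not known. Per the labels' protocols, RNA with an integrity number of at least 7 went into a stranded kit with paired reads of 59 bases.

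The counts were fitted in R 4.3.3 with edgeR 4.0.16 (filterByExpr with minimum count 10 and total 15, TMM, glmQLFit and glmQLFTest on group alone, all 8 libraries), and p-values were adjusted over all 11797 tested genes. CPM are counts over total times TMM factor (0.991 to 1.01). SEs and 95% intervals come from the quasi-likelihood F statistic. Levels per kb, positions and exon overlaps use GENCODE M21 (GRCm38). The test was tried on simulated counts of 11732 genes, with 66 genes changed at each of 1.2-fold, 1.5-fold and 2-fold. Of those changed 1.2-fold 71.2% were recovered, and 0.113% of unchanged genes were called. Far fewer genes differed there than the 47.9% called in the data, and the adjusted p depends on that share. These rates therefore need not hold for the data.

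The members and gene lists were chosen with earlier results of these data known. Named genes are all members, Trp53 and, per list, up to 2 called rises and 2 called falls of largest size with a mean of at least 1 CPM. Alternatives were other normalizations (DESeq2 size factors, upper quartile, library totals), no filter and a filter at 1 CPM in 4 libraries, a replicate block, DESeq2 1.42.0, limma-voom (limma 3.58.1), a fold of 1.1, other lengths and UTRs, and leaving out each library. A planned search of member proteins for the BH3 motif was not run.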

Additional observations from a re-analysis of the deposited data

Results flagged for a closer look

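In groups of 4, a library was flagged when its gap to the nearest other library took up more of the group's range than Dixon's 95% limit allows. Of 78 groups of values examined 4 were flagged, and chance flags about 1 in 20. The ratio of Bcl2l11 to Bcl2l1 was 0.0646 in knockdown replicate 1 and 0.0567 to 0.0574 in the other 3. The ratio of the summed effectors to the summed pro-survival genes was 0.844 in knockdown replicate 1 and 0.890 to 0.897 in the others, all below the scrambled range of 0.931 to 0.988. Birc5 stood at 141 CPM in knockdown replicate 4 against 136 to 137 CPM in the other knockdown libraries. Foxo1 stood at 41.4 CPM in scrambled replicate 2 against 45.6 to 45.7 CPM in the other scrambled libraries. No level of a family member was flagged.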

How the results depend on the processing

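The 6 members called, 3 higher and 3 lower, were called in the same direction in all 16 alternative fits, and the other 4 were called in none. Over these fits Bid was 1.33-fold to 1.37-fold and Pmaip1 1.35-fold to 1.40-fold lower, Mcl1 1.14-fold to 1.17-fold and Bcl2 1.15-fold to 1.22-fold higher. Bax ranged from 1.08-fold to 1.12-fold lower (adjusted p up to 0.0195) and Bak1 from 1.06-fold to 1.09-fold higher (adjusted p up to 0.033). With a tested fold of 1.1 in place of 1.2, 4 members passed rather than 2. Small uncalled changes turned sign: Bcl2l1 gave a log2 fold change of 0.0053 with library totals alone, and Bad ranged from −0.0192 to 0.0657 on leaving out 1 library, below 0 without scrambled replicate 1 or 3 or knockdown replicate 3. By the longest transcript Bcl2l1 over Mcl1 gave 1.29 (knockdown) and 1.51 (scrambled), since the 2 lengths of Bcl2l1 differ. All genes called ranged from 5069 with DESeq2 to 6004 without scrambled replicate 2. With the replicate block 5533 genes and the same number of members, 6, were called. Same-numbered libraries had correlations of their deviations from −0.035 to 0.0201, so no effect shared by number was seen. This does not exclude that same-numbered cultures were handled together. Bbc3 had the fewest counts of the members, 98 to 133, and so the largest counting error.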
